A study of Mus musculus with 16 samples.

Results

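The comparison described here is what a small-molecule blocker of the dual leucine zipper kinase, DLK, did to cultured sensory neurons that had been deprived of microtubules. It rests on 8 of the 16 samples of the study, chosen by their labelled treatment: 4 that received the inhibitor before nocodazole (DLKi_Noc) and 4 that received vehicle before nocodazole (DMSO_Noc). All 16 came from dorsal root ganglia (DRG) of CD1 mouse embryos, dissociated and grown on poly-D-lysine and laminin with nerve growth factor, 5-fluoro-2'-deoxyuridine and uridine, and all were treated on day 6 in culture. DMSO or GNE3511 at 500 nM was applied for 15 min, and then DMSO or nocodazole at 200 nM was added for 16 h. The remaining groups, also of 4 samples, received DMSO at both steps (DMSO_DMSO) or the inhibitor and then DMSO (DLKi_DMSO). The labels give no age of the embryos and do not say whether replicates were separate cultures or litters, so each p-value is set by how far these samples lie apart, and that distance may be technical. Only 1 compound at 1 dose was tested, so effects through DLK and through other kinases that it may inhibit cannot be told apart.

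DLK, the product of Map3k12, is a MAP kinase kinase kinase of the axon. When the axon is cut or its cytoskeleton is disturbed it activates the kinases MKK4 and MKK7 and through them JNK, which phosphorylates c-Jun and changes transcription in the distant nucleus. The same pathway is known for both ends of the injury response of sensory neurons, regrowth of the axon and death of the cell. Nocodazole is a drug that binds tubulin and takes microtubules apart. GNE3511 blocks the kinase and not its gene, so the RNA of Map3k12 does not check the treatment. It stood at 90.4, 97.3, 103 and 93.3 CPM with nocodazole alone and at 105, 119.7, 117 and 127 CPM with the inhibitor and nocodazole, all of the latter being higher (change 0.28, SE 0.06, edgeR adjusted p 0.00263).

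Levels are given as CPM, counts relative to the size of each library after scaling with trimmed mean factors, and are not corrected for gene length, so they are compared between libraries and not between genes. Values of 4 libraries are always in the order of replicates 1 to 4, and numbers shared between groups do not pair the samples. A change is the log2 ratio of inhibitor plus nocodazole to nocodazole alone with its standard error (SE), and a gene was called when its Benjamini-Hochberg adjusted p in edgeR's quasi-likelihood test over all tested genes was below 0.05. "Rose" and "fell" are used for called genes and always mean relative to nocodazole alone.

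The cultures carried the RNA of sensory neurons in every library. The summed level of 9 sensory neuron markers was 7383 to 8642 CPM with nocodazole and 6995 to 8757 CPM with inhibitor and nocodazole. Markers of other cells were low: 10 Schwann cell and satellite glia markers summed to 88.31 to 135.6 CPM and 76.27 to 138.9 CPM in these groups, and 10 fibroblast markers to 48.45 to 79.45 CPM and 35.04 to 55.53 CPM. The 8 macrophage markers summed to 2.26 to 3.533 CPM against 1.582 to 2.065 CPM, and the defining markers Ptprc and Itgam were at or near 0. Libraries held 30987962 to 43321421 counts. Mitochondrially encoded genes took 1.178% ± 0.2997 of counts with nocodazole and 1.154% ± 0.3841 with inhibitor and nocodazole (SD, n = 4; exact permutation test over 70 splits, p = 0.9143, two-sided, with 0.02857 the smallest p possible).

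A single library of the inhibitor plus nocodazole group stood apart. On the leading principal component of all 16 libraries, which held 38.24% of the variance, the nocodazole libraries lay at 59.5 to 69.7, and the libraries of inhibitor plus nocodazole lay at 10.4 in replicate 1 and at -31.4, -29.1 and -28.4 in replicates 2 to 4. Among the 6494 called genes, replicate 1 was the library of its group nearest to the nocodazole mean for 3492 genes (53.77%), against 12.55% to 16.97% for each of the others. Its mitochondrial share was 1.712%, against 0.8652% to 1.093%. Results are therefore given for all 4 libraries and, where the value moves by more than 1.5 times, also without replicate 1. Libraries of other groups were split in this share too. With nocodazole it was 1.36% and 1.501% in replicates 1 and 2, against 0.8754% and 0.9771% in replicates 3 and 4. With the inhibitor alone it was 1.387% and 1.78% in replicates 2 and 3, against 1.079% and 1.06% in replicates 1 and 4. Chi-square per degree of freedom between replicates with nocodazole was 10.12 (1 and 2) and 12.36 (3 and 4), against 21.07 to 35.48 across these pairs. With the inhibitor alone it was 10.59 (2 and 3) and 14.17 (1 and 4), against 22.46 to 29.77 across. Libraries of the higher share are neighbours in the deposited column order, and compared groups hold unequal numbers of them. The fit does not model this split, leaving out replicate 1 does not remove it, and its cause was not tested.

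The inhibitor changed the RNA of 6494 of 19156 tested genes in nocodazole-treated neurons (33.9%). Of these, 3396 rose (17.7% of tested genes) and 3098 fell (16.2%). The median change was 0.52 among those that rose and -0.64 among those that fell, against 0.00 over all tested genes and a median SE of 0.14. A change of at least 2-fold was reached by 753 rising genes (3.93%) and 956 falling genes (4.99%), and one of at least 4-fold by 148 and 256. The 4 libraries of each group did not overlap for 2480 of the rising genes (12.9% of tested genes) and 2459 of the falling genes (12.8%). Among the 14106 protein-coding genes tested 20.35% rose and 18.57% fell, and among 2157 long noncoding genes 14.84% rose and 9.92% fell. When each of the 8 libraries was left out in turn, 2372 rising genes (69.85%) and 2243 falling genes (72.4%) remained called every time.

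**Figure D1:**
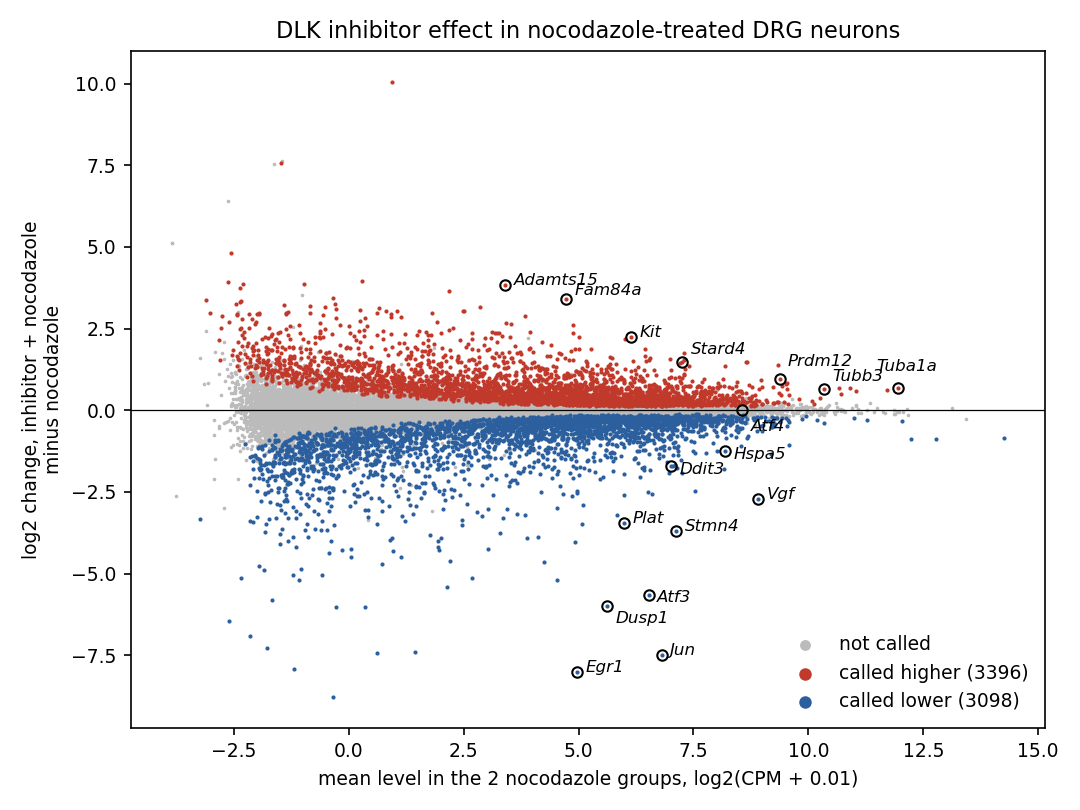
Each point is a gene, with its mean level in the nocodazole and inhibitor plus nocodazole groups on the horizontal axis (log2 of CPM plus 0.01) and its log2 change on the vertical axis; red and blue mark the 3396 genes called higher and the 3098 called lower. The farthest changes of well expressed genes are downward: Jun, Egr1, Atf3 and Dusp1 lie below -5, and Adamts15 and Fam84a, the farthest labelled points upward, lie at 3.85 and 3.40. A few points of very low level lie farther out and are not named.

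The deepest falls of well expressed genes included transcription factors of the injury and immediate early response. Jun, the DNA-binding subunit of AP-1 and a direct substrate of JNK, was counted at 194, 181, 293 and 223 CPM with nocodazole and at 0.841, 1.38, 1.40 and 1.44 CPM with inhibitor and nocodazole, a fall in every library (change -7.48, SE 0.82, edgeR adjusted p 3.35e-06). Atf3, a factor switched on in injured sensory neurons, went from 184, 162, 216 and 163 CPM to 5.60, 2.60, 3.13 and 2.71 CPM (change -5.67, SE 0.39, edgeR adjusted p 3.22e-08). Egr1, a zinc finger factor of the immediate early class, went from 53.5, 59.8, 78.0 and 59.2 CPM to 0.288, 0.0940, 0.217 and 0.339 CPM (change -8.01, SE 0.38, edgeR adjusted p 4.64e-10). The groups are far apart for all 3 genes, and replicate 1, which stood apart over the whole transcriptome, was as low as the others for Jun and Egr1 and slightly higher for Atf3. Without nocodazole the mean level was 70.3 CPM for Jun, 4.25 CPM for Atf3 and 1.30 CPM for Egr1, against 1.26, 3.51 and 0.235 CPM with inhibitor and nocodazole.

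Of 26 measured AP-1, ATF, CREB and Maf factors, 18 fell and 2 rose, with a median change of -1.04; over all tested genes 16.2% fell and 17.7% rose. Besides Jun and Atf3, the AP-1 subunit gene Fosl2, chosen after its values were seen, fell from 69.5, 61.8, 58.2 and 52.6 CPM to 11.6, 6.14, 6.83 and 7.86 CPM (change -2.89, SE 0.18). Fos itself was scarce at this time, at 2.67 to 5.82 CPM with nocodazole and 0.0621 to 0.408 CPM with the inhibitor as well. Creb5, a factor of the CRE-binding class, fell by 4.04 on the log2 scale. The members that rose were the related factors Atf2 and Atf7, both of which are known JNK or p38 substrates, and their changes were small, 0.24 and 0.23.

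Phosphatases that switch MAP kinases off fell with them. Of 15 measured dual-specificity phosphatases 9 fell (60%) and 3 rose (20%), with a median change of -1.26. Over all tested genes 16.2% fell and 17.7% rose, so the share of rises was near that of all genes. Dusp1, which dephosphorylates JNK and p38, went from 103, 78.5, 118 and 89.0 CPM to 2.14, 0.877, 1.49 and 1.5 CPM (change -5.99, SE 0.36, edgeR adjusted p 6.92e-09). Dusp16, also directed at JNK, went from 26.4, 27.3, 30.6 and 25.3 CPM to 2.31, 1.60, 1.89 and 1.47 CPM. Dusp4 and Dusp6, directed mainly at ERK, varied within the nocodazole group. Dusp4 stood at 41.1, 36.5, 11.4 and 14.8 CPM there and at 7.93, 0.783, 1.09 and 1.19 CPM with the inhibitor; its change was -3.20 with all libraries and -4.66 without replicate 1. Dusp6 changed by -2.56, and by -3.21 without that library. Dusp7 and Dusp18 were among those that rose, each by 0.50.

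The wider list of immediate early genes, which neurons transcribe within minutes of a stimulus, fell in 17 of 25 measured members and rose in 2 (median -1.16). Over all tested genes 16.2% fell and 17.7% rose. Btg2, an antiproliferative gene, went from 14.0, 18.2, 24.3 and 16.0 CPM to 2.76, 0.595, 0.745 and 1.10 CPM, a change of -3.76 that was -4.46 without replicate 1. Vgf, which encodes a secreted neuropeptide precursor, went from 981, 975, 616 and 765 CPM to 254, 76.7, 97.2 and 77.0 CPM, a change of -2.72 that was -3.32 without replicate 1. Arid5a, which encodes an RNA-binding regulator of inflammatory transcripts, changed by -3.48. Nr4a2 and Klf6 rose, by 0.78 and 0.33, and for both the libraries of the groups overlapped; the call of Nr4a2 was lost when replicate 3 of the inhibitor plus nocodazole group was left out (edgeR adjusted p 0.0626).

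Promoters are shown of the 6 genes with the largest changes whose promoter window held a searched motif. They come from the 205 named genes (of 264 searched for) that had a window. Windows on an excluded chromosome were passed over, so a gene with a larger change may be missing. The motifs are letters that AP-1, ATF and CREB factors are known to bind. Each promoter shown is the 250 bases upstream of the annotated start, from RefSeq on GRCm38.p6, with the motif in capitals. Mmp12, which encodes macrophage elastase (chr9:7347124-7347373, plus strand), and Bpifc (chr10:86011861-86012110, minus strand) hold an AP-1 motif, TGANTCA. Dusp1 (chr17:26508473-26508722, minus strand), the ephrin receptor gene Epha2 (chr4:141300971-141301220, plus strand) and the growth factor gene Areg (chr5:91139349-91139598, plus strand) hold a cAMP response element, TGACGTCA. Atf3 (chr1:191183334-191183583, minus strand) holds a C/EBP-ATF element, TGATGNAA, in reverse.
Mmp12: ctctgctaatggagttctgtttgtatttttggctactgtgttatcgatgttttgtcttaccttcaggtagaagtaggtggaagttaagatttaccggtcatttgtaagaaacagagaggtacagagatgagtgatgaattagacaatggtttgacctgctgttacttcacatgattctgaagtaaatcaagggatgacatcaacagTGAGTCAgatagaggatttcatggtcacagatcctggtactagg
Bpifc: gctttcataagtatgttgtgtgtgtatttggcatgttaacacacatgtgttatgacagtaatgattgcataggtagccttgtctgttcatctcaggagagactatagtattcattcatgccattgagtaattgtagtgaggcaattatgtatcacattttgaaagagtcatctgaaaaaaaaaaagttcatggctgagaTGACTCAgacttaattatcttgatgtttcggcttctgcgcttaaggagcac
Dusp1: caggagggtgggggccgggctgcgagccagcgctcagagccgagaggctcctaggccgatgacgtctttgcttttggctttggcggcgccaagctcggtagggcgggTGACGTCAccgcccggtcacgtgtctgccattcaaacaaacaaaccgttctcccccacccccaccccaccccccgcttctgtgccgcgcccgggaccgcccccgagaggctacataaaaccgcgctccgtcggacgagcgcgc
Epha2: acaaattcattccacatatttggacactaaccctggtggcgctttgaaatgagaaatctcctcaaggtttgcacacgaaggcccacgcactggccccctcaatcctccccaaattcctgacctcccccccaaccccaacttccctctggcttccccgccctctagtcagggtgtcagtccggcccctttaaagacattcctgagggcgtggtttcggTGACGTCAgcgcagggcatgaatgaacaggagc
Areg: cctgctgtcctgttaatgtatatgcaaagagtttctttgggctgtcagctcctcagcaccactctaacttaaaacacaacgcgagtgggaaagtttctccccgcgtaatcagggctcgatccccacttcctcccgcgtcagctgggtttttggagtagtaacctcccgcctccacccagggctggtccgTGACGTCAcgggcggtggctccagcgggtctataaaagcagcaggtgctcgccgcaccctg
Atf3: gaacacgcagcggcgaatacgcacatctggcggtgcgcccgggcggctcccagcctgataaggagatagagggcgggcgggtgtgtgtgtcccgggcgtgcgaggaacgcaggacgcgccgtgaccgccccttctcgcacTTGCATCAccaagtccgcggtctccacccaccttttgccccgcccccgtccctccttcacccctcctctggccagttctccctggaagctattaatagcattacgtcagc

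The capitals begin 44 bases before the start in Mmp12, 51 in Bpifc, 143 in Dusp1, 33 in Epha2, 61 in Areg and 110 in Atf3. Both strands were searched, and the motifs overlap in their letters: all 3 begin with TGA, and the AP-1 motif and the cAMP response element both end in TCA. In windows of the same length, the AP-1 motif was found in 6.749% of all 32851 promoters, the cAMP response element in 1.546% and the C/EBP-ATF element in 3.452%. Among promoters of tested genes the shares were 4.274%, 2.453% and 2.041%. Among promoters of genes that fell by at least 2-fold they were 7.884%, 2.628% and 3.596%, and among those that rose by at least 2-fold 5.253%, 0.389% and 1.751%. These shares are descriptions; a match is not a measured binding site.

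The 4 less abundant genes of this set were near absent with the inhibitor. Mmp12 stood at 2.68, 1.97, 3.42 and 4.03 CPM with nocodazole and at 0.0240, 0, 0 and 0.0283 CPM with the inhibitor, where the values above 0 are single counts. Bpifc stood at 4.25, 1.68, 7.89 and 7.74 CPM and at 0, 0.0626, 0.0621 and 0 CPM. Epha2 stood at 1.85, 2.03, 1.93 and 2.02 CPM and 0.144, 0.157, 0 and 0.0283 CPM. Areg stood at 2.95, 2.78, 0.907 and 1.2 CPM and 0.0481, 0.0626, 0.186 and 0.113 CPM, with its nocodazole libraries far from each other. All 4 fell without overlap, and for Mmp12 and Bpifc no fold is given because so few counts remained.

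**Figure D2:**
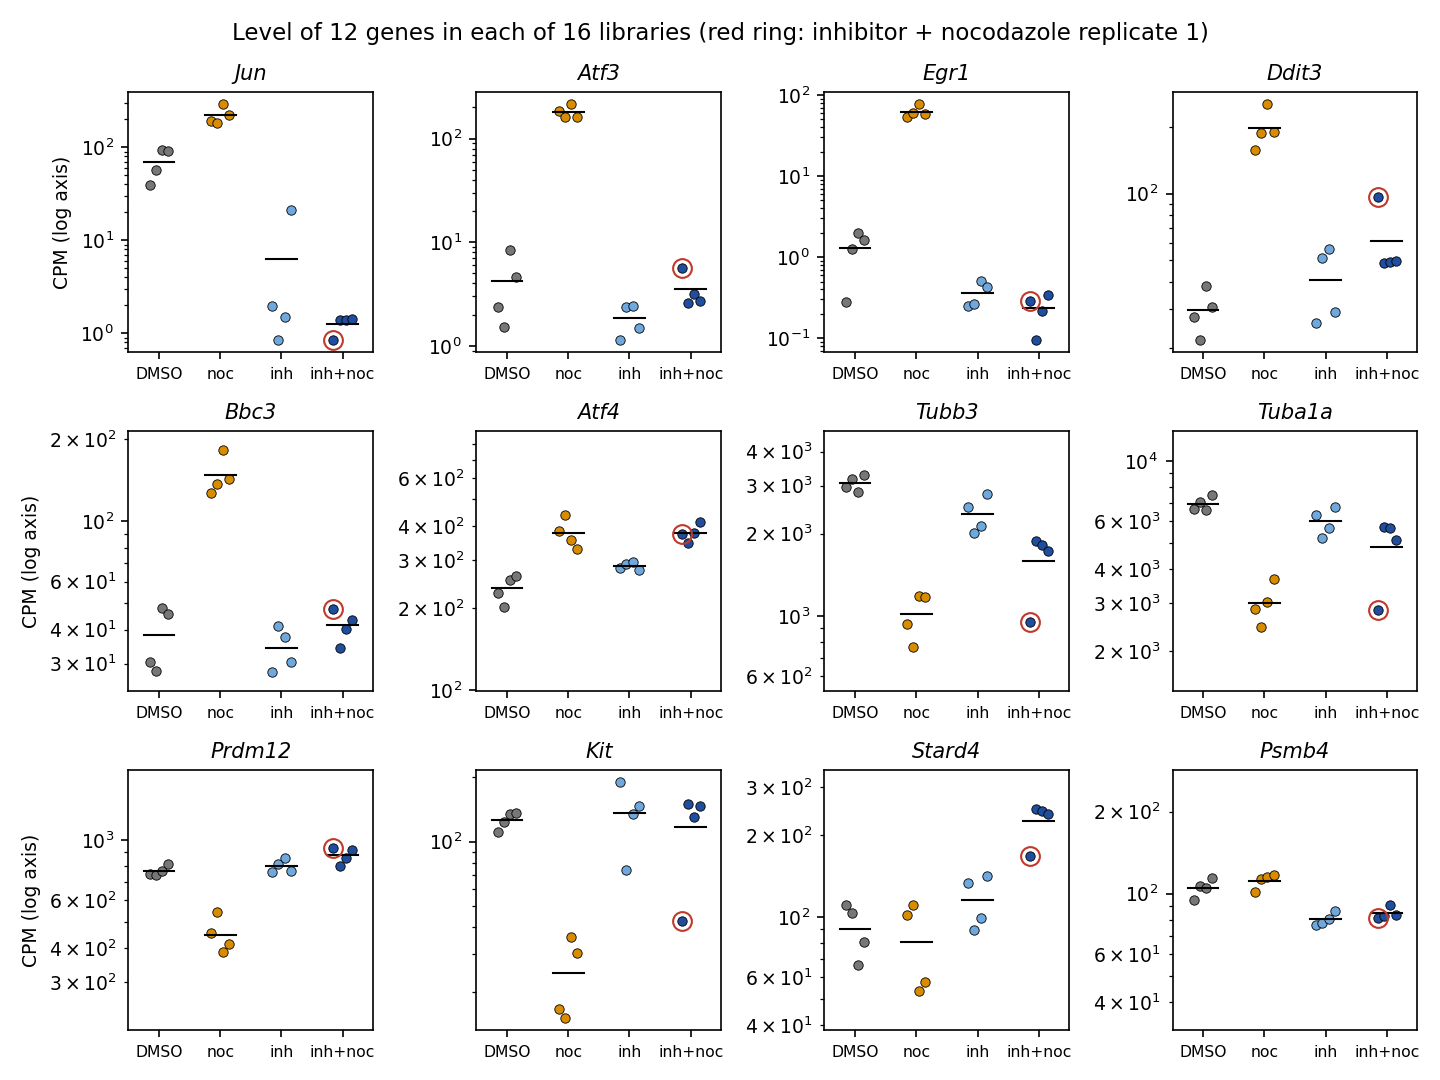
Level of 12 genes in each of the 16 libraries, in CPM on log axes, by group (DMSO, nocodazole, inhibitor, inhibitor plus nocodazole); points are libraries, lines are means of 4, and the red ring marks replicate 1 of the inhibitor plus nocodazole group. Jun, Atf3 and Egr1 are low in all 4 inhibitor plus nocodazole libraries, the libraries of Atf4 overlap between the nocodazole groups, and for Tubb3 and Tuba1a the ringed library lies with the nocodazole libraries while the other 3 lie above them.

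Further genes at the top of the falling list encode receptors, adaptors and transporters. Tnfrsf12a, the receptor for the cytokine TWEAK, went from 37.2, 26.8, 44.6 and 38 CPM to 2.09, 0.908, 1.40 and 1.44 CPM (change -4.63, SE 0.27, edgeR adjusted p 5.34e-09). The orphan receptor gene Gprc5c fell from 41.6 to 48.5 CPM to 0.720 to 2.09 CPM. Afap1l2, which encodes an adaptor of Src kinase signalling, fell from 4.82 to 11.1 CPM to 0.124 to 0.254 CPM, and Il6ra, the interleukin 6 receptor, from 5.80 to 8.49 CPM to 0.217 to 0.769 CPM. Snx33, a sorting nexin, Slc44a5, a choline transporter-like gene, Fam167a, the potassium channel gene Kcnj6 and Tgif1, a corepressor of TGF-beta signalling, changed by -5.12, -4.61, -4.25, -4.01 and -4.28. Replicate 1 was the highest library of its group for Snx33 (1.03 CPM, others 0.0565 to 0.125 CPM) and Tgif1 (1.01 CPM, others 0.0848 to 0.248 CPM), whose changes without it were -7.04 and -5.68.

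The CHOP branch of the integrated stress response, in which phosphorylated eIF2alpha lets ATF4 be made and ATF4 and CHOP switch on their targets, was lower with the inhibitor, while Atf4 RNA did not pass the test. Of 11 measured members of the CHOP, ATF4 and C/EBP list, 8 fell (median -1.03), each without overlap of the libraries, and 0 rose (edgeR; 0 at an unadjusted p below 0.05 and 0 in DESeq2). Over all tested genes 12.8% fell without overlap, and 42.8% had an unadjusted p below 0.05. Ddit3, which encodes CHOP, went from 158, 188, 255 and 189 CPM to 96.3, 48.5, 49.1 and 49.8 CPM (change -1.70, SE 0.27, edgeR adjusted p 0.000135). Ppp1r15a, which encodes GADD34, the subunit that leads phosphatase back to eIF2alpha, went from 256, 218, 247 and 237 CPM to 116, 43.2, 51.0 and 44.4 CPM (change -1.91, SE 0.32, edgeR adjusted p 0.000184). For both genes replicate 1 lay between the nocodazole libraries and the other 3. Atf4 stood at 384, 439.6, 354 and 329 CPM and 373, 347, 377 and 414 CPM, and its change was 0.00 with an SE of 0.09 (edgeR adjusted p 0.976).

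Lists of targets further down this response had smaller median changes than the -1.03 of the CHOP, ATF4 and C/EBP list. Of 20 cytosolic aminoacyl-tRNA synthetases 9 fell and 1 rose (median -0.19), where 16.2% of all tested genes fell and 17.7% rose. Sars fell most, from 433, 440.4, 439 and 437 CPM to 297, 265, 276 and 259 CPM (change -0.67, SE 0.06, edgeR adjusted p 9.06e-07), followed by Rars (-0.47), Lars (-0.41) and Tars (-0.39), and Mars was the member that rose (0.22), a call lost when replicate 2, 3 or 4 of the inhibitor plus nocodazole group or replicate 1, 2 or 4 of the nocodazole group was left out (edgeR adjusted p 0.0552 to 0.0830). Of 25 amino acid synthesis and transport genes 5 fell and 2 rose (median -0.21), a share of falls near that of all tested genes; without replicate 1, 9 fell, and without replicate 2 or 4 of the same group or replicate 1 or 2 of the nocodazole group, 3 fell. Shmt2 and Psph, of serine and glycine synthesis, changed by -0.46 and -0.42, and Gpt2 rose by 0.37. Of 21 other targets of the response 12 fell and 1 rose (median -0.61), among them Txnip (-2.31, and -1.71 without nocodazole replicate 3) and the secreted stanniocalcin Stc2, which stood at 81.0, 85.1, 67.3 and 62.7 CPM with nocodazole and at 57.8, 19.4, 21.4 and 21.8 CPM with the inhibitor. The lipoprotein receptor gene Vldlr was the member that rose, by 0.32.

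Genes of the endoplasmic reticulum (ER) fell in 9 of 30 measured members and rose in 1 (median -0.09), against 16.2% and 17.7% of all tested genes. The rising count was 3 without replicate 1 or without nocodazole replicate 2, and 0 without inhibitor plus nocodazole replicate 2 or 3 or nocodazole replicate 1, 3 or 4. The largest changes were in Eif2ak3, which encodes the ER stress kinase PERK and went from 128, 119, 148 and 143 CPM to 36.6, 37.2, 38.6 and 39.2 CPM (change -1.83, SE 0.09, edgeR adjusted p 6.06e-10), and Dnajb9, an ER co-chaperone, from 42.6, 37.4, 43.4 and 43.9 CPM to 15.7, 14.2, 16.0 and 15.3 CPM. Hspa5, which encodes the chaperone BiP, went from 386, 351, 467 and 428 CPM to 176, 166, 191 and 160.5 CPM (change -1.24, SE 0.09, edgeR adjusted p 4.67e-08), and Ern1, the sensor IRE1alpha, changed by -1.06. For Eif2ak3, Dnajb9 and Hspa5 all 4 inhibitor libraries, replicate 1 included, lay within a narrow band below every nocodazole library. Manf was the member that rose (0.19), a call lost without inhibitor plus nocodazole replicate 2 or 3 or nocodazole replicate 1, 3 or 4 (edgeR adjusted p 0.0618 to 0.138).

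Genes of cell death and of growth arrest fell more often than they rose, where 16.2% of all tested genes fell and 17.7% rose. Of 17 measured BCL2 family genes 9 fell and 1 rose (median -0.35). Bbc3, which encodes the death activator PUMA, went from 127, 137, 182 and 143 CPM to 47.8, 34.4, 40.3 and 43.5 CPM (change -1.83, SE 0.18, edgeR adjusted p 9.03e-07), and Bcl2l11, which encodes BIM, from 12.4, 11.8, 14.6 and 11.5 CPM to 4.54, 3.82, 4.53 and 2.85 CPM (change -1.67, SE 0.16, edgeR adjusted p 1.09e-06). The list's falling members were not all of 1 kind: Bcl2, the survival gene, fell too, from 21.9, 21.5, 19.6 and 20.6 CPM to 8.19, 4.38, 4.93 and 4.46 CPM (change -1.92). Pmaip1, which encodes NOXA, fell by 1.93 at a level near 1 CPM, and Bnip3 rose by 0.29. In the list of p53 circuit and growth arrest genes 13 of 35 fell and 5 rose (median -0.18). Gadd45a went from 104, 118, 123 and 99.3 CPM to 61.0, 32.5, 33.3 and 33.3 CPM (change -1.47, SE 0.24, edgeR adjusted p 0.000199), Mdm2, the ligase for p53, changed by -1.30 and Btg1 by -1.70, whereas Sesn1 and Pidd1, known p53 targets as well, rose by 0.93 and 0.58. Of 17 TNF receptor family genes 6 fell and 3 rose; without replicate 1 the counts were 7 and 5, and without nocodazole replicate 3 only 1 rose.

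Injury and regeneration associated genes, a list drawn up around nerve crush, fell in 24 of 41 measured members and rose in 4 (median -0.44). Over all tested genes 16.2% fell and 17.7% rose. Without replicate 1 the counts in the list were 21 and 7. Stmn4, which encodes a tubulin-binding stathmin, went from 229, 220.1, 299.6 and 289 CPM to 23.2, 18.6, 18.1 and 20.8 CPM (change -3.68, SE 0.29, edgeR adjusted p 1.12e-07). Sox11, a factor for axon growth, went from 402, 364, 359 and 332 CPM to 207, 121, 129 and 155 CPM (change -1.25, SE 0.15, edgeR adjusted p 7.01e-06). Other members behaved differently. Gap43, of the growth cone, changed by -0.30 (edgeR adjusted p 0.041) and lost its call without replicate 1 (edgeR adjusted p 0.105), without replicate 4 of the same group or without nocodazole replicate 3 or 4 (0.0777 to 0.136). The neuropeptide gene Gal did not pass, with a change of -0.07 (SE 0.28). Stmn2, a stathmin gene of axon maintenance that is not in this list, did not pass either (0.11, SE 0.14). Rab27b, of vesicle transport, and Lifr, the receptor for leukaemia inhibitory factor, rose by 1.46 and 0.82. Sprr1a, another gene known for nerve injury, had too few counts to be tested.

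Genes of the actin cytoskeleton and of the serum response factor fell in 16 of 39 measured members and rose in 2 (median -0.24). The shares of all tested genes were 16.2% and 17.7%. Zyx, which encodes zyxin of focal adhesions, went from 147, 118, 186 and 172 CPM to 32.9, 23.8, 25.6 and 27.9 CPM (change -2.50, SE 0.16, edgeR adjusted p 1.9e-08), and Filip1l changed by -3.83. Vim, the intermediate filament vimentin, went from 1036, 983, 1098 and 1003 CPM to 524, 447, 487 and 505 CPM (change -1.07). Among 32 matrix proteases and inhibitors 9 fell and 4 rose, or 7 without replicate 1. Plat, which encodes tissue plasminogen activator, went from 112, 95.5, 136 and 122 CPM to 10.8, 11.5, 9.96 and 9.89 CPM (change -3.46, SE 0.14, edgeR adjusted p 7.33e-11), and Adamts1 changed by -2.23. Timp3, a protease inhibitor also made by supporting cells, varied within groups, from 5.56 to 22.9 CPM with nocodazole and from 0.865 to 3.19 CPM with the inhibitor. Collagens fell in 10 of 32 and rose in 3 (0 without nocodazole replicate 1 or 2, 1 without inhibitor plus nocodazole replicate 2). Of 8 measured fibroblast markers 3 fell (1 without inhibitor plus nocodazole replicate 3 or nocodazole replicate 4) and of 5 glial markers 2 fell (1 without nocodazole replicate 2); their part in the matrix and actin results was not tested. In bulk RNA, fewer cells of a type and less RNA per cell cannot be told apart.

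Proteasome subunits fell by small amounts. Of 35 proteasome subunits 25 fell and 1 rose (median -0.21), where 16.2% of all tested genes fell and 17.7% rose. Psmc2, Psmb4 and Psmc4, each an essential subunit, changed by -0.46, -0.40 and -0.33; Psmb4 stood at 102, 113, 115 and 117 CPM with nocodazole and at 81.3, 82.6, 90.8 and 83.8 CPM with the inhibitor, with no overlap. The assembly chaperone gene Psmd5 was the member that rose (0.47). Cytosolic ribosomal protein genes fell in 24 of 82 and rose in 1 (median -0.13; 0 rose without inhibitor plus nocodazole replicate 2 or 3 or nocodazole replicate 1 or 3), a count of falls that dropped to 14 or 15 without replicate 3 or 4 of the inhibitor plus nocodazole group or replicate 2 or 3 of the nocodazole group. Of the circadian clock list 8 of 19 fell and 2 rose (median -0.34): Per1 went from 109, 99.2, 101 and 94.8 CPM to 35.4, 22.9, 22.8 and 22.6 CPM (change -1.96, SE 0.15, edgeR adjusted p 5.99e-08), Rora and Bhlhe40 changed by -1.58 and -1.56, and Per3 and Tef rose by 1.28 and 0.40. Of 26 targets of the oxidative stress factor NRF2 6 fell and 1 rose (2 rose without replicate 1 or without nocodazole replicate 2), with Hmox1, heme oxygenase, from 64.7, 53.8, 60.2 and 51.6 CPM to 30.6, 19.7, 20.3 and 21.9 CPM and Srxn1 and Sqstm1 changed by -1.22 and -0.64. Of 13 mitochondrially encoded genes 0 passed the edgeR test, 0 had an unadjusted p below 0.05 and 0 were called by DESeq2, where 33.9% of all tested genes passed in edgeR.

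**Figure D3:**
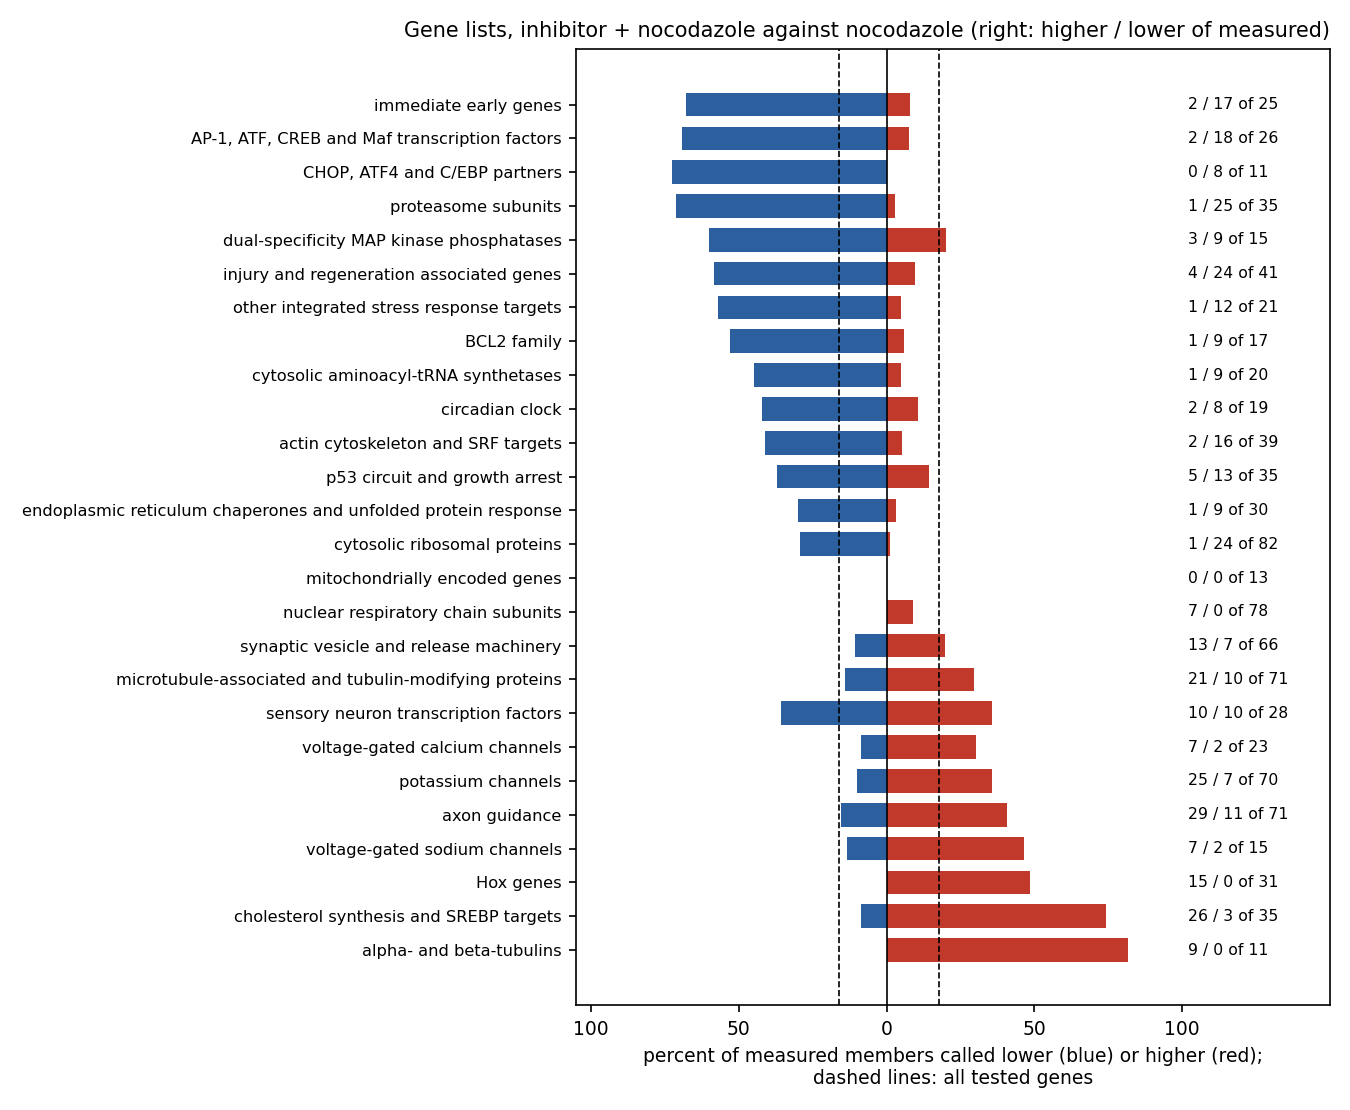
Percent of measured members of 26 gene lists called lower (blue bars, to the left) or higher (red bars, to the right) with inhibitor plus nocodazole, with the counts beside them (higher / lower of measured); dashed lines give the 16.2% and 17.7% of all tested genes. Falls dominate in the AP-1, immediate early, CHOP and proteasome lists, and rises in the tubulin, cholesterol and Hox lists.

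Tubulin genes rose, with replicate 1 of the inhibitor plus nocodazole group as an exception for most of them. Of 11 measured alpha- and beta-tubulin genes 9 rose (median 0.65) and 0 fell (edgeR; 0 at an unadjusted p below 0.05 and 0 in DESeq2), and without replicate 1 all 11 rose (median 0.82). Tubulin RNAs are known to be degraded when free tubulin subunits accumulate, as they do in nocodazole. Tuba1a stood at 2856, 2458, 3043 and 3685 CPM with nocodazole and at 2831, 5714, 5694 and 5149 CPM with the inhibitor (change 0.69, SE 0.17, edgeR adjusted p 0.00564; change 0.88 without replicate 1). Tubb3, the neuronal beta-tubulin, stood at 930.1, 766, 1184 and 1176 CPM and 945, 1876, 1819 and 1724 CPM (change 0.65, SE 0.18, edgeR adjusted p 0.011; 0.84 without replicate 1). For both, replicate 1 lay among the nocodazole libraries, and the other 3 lay above all of them. For 3 of the 11 genes the groups did not overlap, where 12.9% of all tested genes rose without overlap.

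Among other tubulins, Tuba1b stood at 501, 475, 536 and 614 CPM and 629, 1074, 1062 and 990.4 CPM. Its replicate 1 was again the lowest library of its group but lay above every nocodazole library. Tubb4a and Tubb4b changed by 0.94 and 0.75. In vehicle-treated neurons the means were higher than in either nocodazole group, 6960 CPM for Tuba1a and 3065 CPM for Tubb3. The reads of near-identical tubulin genes may be split between them in ways the sources used here do not state. The 26 genes of tubulin autoregulation and folding differed from the tubulins: 1 rose and 6 fell (median -0.10), where 17.7% of all tested genes rose and 16.2% fell.

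Among genes that act on microtubules, 21 of 71 microtubule-associated and tubulin-modifying genes rose and 10 fell (median 0.12). The shares of all tested genes were 17.7% and 16.2%. Dclk3, a doublecortin-like kinase gene, went from 8.14, 11.6, 8.46 and 9.53 CPM to 41.1, 49.4, 51.3 and 54.8 CPM (change 2.38, SE 0.10, edgeR adjusted p 2.04e-10), and Mtus2 and Nav2, whose products bind microtubules, rose by 1.26 and 1.24. Gas2l3, a linker of microtubules and actin, fell by 1.28 on the log2 scale. Of 66 kinesin and dynein genes 11 rose and 8 fell, shares near or below those of all tested genes, and 7 rose without inhibitor plus nocodazole replicate 3 or nocodazole replicate 1. The kinesin gene Kif26b went from 197, 205, 225 and 220.0 CPM to 407, 659, 630.1 and 659 CPM (change 1.47, SE 0.13, edgeR adjusted p 2.5e-07), and the dynein genes Bicd2, an adaptor, and Dync1li2, a subunit, fell, by 0.65 and 0.39.

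Transcription factors of sensory neurons changed in both directions: 10 of 28 rose and 10 fell, against 17.7% and 16.2% of all tested genes. Prdm12, needed for the pain-sensing lineage, went from 454, 543, 387 and 415 CPM to 936, 799.8, 859 and 916 CPM (change 0.96, SE 0.09, edgeR adjusted p 4.81e-07), all 4 libraries, replicate 1 included, lying above the nocodazole group. Isl1 and Pou4f1, which set up the sensory fate, rose by 0.74 and 0.49, Bcl11a by 1.28 and Runx1, of the nociceptor lineage, by 0.82. Etv4, a nerve growth factor responsive gene, fell by 1.54 (log2), or by 2.15 without replicate 1. Etv5, a related ETS factor gene, and Tlx3, a homeobox gene of sensory lineages, both chosen after their values were seen, changed by -1.38 and -0.82.

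Receptors for growth factors and transmitters were among the largest rises. Adamts15, a secreted metalloprotease gene and the top of the rising list, went from 0.524, 0.778, 1.63 and 2.63 CPM to 8.29, 25.4, 23.5 and 22.0 CPM (change 3.85, SE 0.45, edgeR adjusted p 5.81e-06). Oprk1 and Oprd1, the kappa and delta opioid receptors, changed by 3.65 and 2.70, from 0.441 to 1.24 CPM to 2.35 to 12.5 CPM and from 0.808 to 1.19 CPM to 4.64 to 8.03 CPM. The ADP receptor P2ry1, the serotonin receptor Htr1b and the Wnt receptor Fzd7 rose by 3.04, 2.60 and 2.69. Kit, the receptor for stem cell factor, stood at 16.6, 15.1, 35.9 and 30.4 CPM with nocodazole and at 42.8, 149.6, 130.0 and 146 CPM with the inhibitor (change 2.26, SE 0.36, edgeR adjusted p 0.000149). Gfra2, the neurturin receptor, went from 0.717 to 1.2 CPM to 3.29 to 5.83 CPM. In Oprk1, Htr1b and Kit replicate 1 was the lowest library of its group while still above the nocodazole libraries.

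Further genes at the top of the rising list are of several kinds. Fam84a went from 4.63, 4.61, 4.59 and 4.49 CPM to 36.3, 50.5, 49.3 and 58.0 CPM (change 3.40, SE 0.12, edgeR adjusted p 1.95e-11), and Rhpn2 from 1.41, 1.41, 1.63 and 1.37 CPM to 12.2, 12.5, 12.8 and 14.6 CPM (change 3.16, SE 0.17, edgeR adjusted p 1.96e-09). Pxylp1, of proteoglycan synthesis, and Flrt2, a guidance and adhesion protein, rose by 3.05 and 2.90, and the synaptic adhesion genes Lrrtm4 and Lrfn2 by 2.40 and 2.40. Mob3b, the transcription factor gene Grhl3 and Shisa9, which encodes a partner of AMPA receptors, rose by 2.65, 2.46 and 2.53. Of 11 measured neurotrophin and GDNF family receptors 3 rose (5 without nocodazole replicate 3) and 1 fell, where 17.7% of all tested genes rose and 16.2% fell. Ret fell by 0.48, and the call of Ntrk3 (1.08) was lost without inhibitor plus nocodazole replicate 2, 3 or 4 or nocodazole replicate 1 or 2 (edgeR adjusted p 0.0719 to 0.107).

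Ion channel genes rose more often than they fell, where 17.7% of all tested genes rose and 16.2% fell. Of 15 voltage-gated sodium channel genes 7 rose (46.67%) and 2 fell (median 0.36). Calcium channel genes rose in 7 of 23 (30.43%) and fell in 2 (median 0.15). Potassium channel genes rose in 25 of 70 (35.71%) and fell in 7 (median 0.17). Scn1a stood at 36.1, 32.8, 45.2 and 37.9 CPM with nocodazole and at 44.9, 72.5, 61.7 and 67.7 CPM with the inhibitor (change 0.70, SE 0.14, edgeR adjusted p 0.000965), and Scn3a rose by 0.58. Scn10a, the channel typical of nociceptors, went the other way, from 1504, 1437, 1532 and 1401 CPM to 1030, 1190, 1143 and 1107 CPM (change -0.39, SE 0.06, edgeR adjusted p 9.81e-05). The inward rectifier gene Kcnj3 stood at 1.68, 1.35, 6.20 and 2.90 CPM and 3.96, 18.9, 16.4 and 16.8 CPM, where replicate 1 overlapped the nocodazole libraries; its change was 2.21, and 2.82 without nocodazole replicate 3. Of 66 genes of synaptic vesicles and release 13 rose and 7 fell, and 20 rose without replicate 1, so the rising share with all libraries (19.7%) was near the 17.7% of all tested genes; Syt7 and Rimbp2 changed by 0.76 and 0.81.

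Axon guidance genes rose in 29 of 71 measured members and fell in 11 (median 0.18), against 17.7% and 16.2% of all tested genes. Sema3d stood at 1.74, 2.15, 6.38 and 3.38 CPM with nocodazole and at 6.51, 21.9, 16.9 and 21.2 CPM with the inhibitor (change 2.28, SE 0.41, edgeR adjusted p 0.000412), and Sema6b, a membrane semaphorin, rose by 1.84. Unc5d, a netrin receptor gene, fell by 2.22. Hox genes, which keep the position of a ganglion along the body axis, rose in 15 of 31 measured members and fell in 0 (median 0.36; in edgeR 1 fell at an unadjusted p below 0.05, and in DESeq2 0 were called; without replicate 1 or 4 of the inhibitor plus nocodazole group 1 fell). Hoxa9 went from 18.6, 22.3, 11.8 and 16.1 CPM to 37.5, 31.2, 33.4 and 35.8 CPM (change 1.0, SE 0.13, edgeR adjusted p 1.96e-05), and Hoxa3 and Hoxb6 rose by 0.90 and 0.89. Interferon response genes went both ways, 7 of 22 up and 6 down, with 10 down without replicate 1 and 3 down without any other library of its group or without nocodazole replicate 1; Stat2 went from 94.6, 94.2, 99.3 and 84.3 CPM to 158, 256, 239 and 248 CPM (change 1.27, SE 0.13, edgeR adjusted p 1.14e-06) and Ifit3b rose by 1.80 from a level near 1 CPM.

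Cholesterol synthesis and SREBP target genes, which cells turn on when membrane sterol is low, rose in 26 of 35 measured members and fell in 3 (median 0.63). Without replicate 1, 28 rose. The shares of all tested genes were 17.7% and 16.2%. Stard4, a sterol carrier gene, stood at 101, 110.1, 53.6 and 57.8 CPM with nocodazole and at 167, 248, 245 and 238 CPM with the inhibitor (change 1.47, SE 0.23, edgeR adjusted p 0.00013), and Insig1, a sensor of sterols, at 129.8, 118, 67.5 and 68.3 CPM and 178, 284, 273 and 240.3 CPM. Scd1, a fatty acid desaturase gene, rose by 1.39. In all 3 genes nocodazole replicates 1 and 2 lay above replicates 3 and 4, inhibitor replicate 1 lay below replicates 2 to 4, and the groups still did not overlap. Abca1, which exports cholesterol, fell from 85.5, 74.2, 82.2 and 97.8 CPM to 28.9, 22.5, 27.0 and 15.1 CPM (change -1.86, SE 0.22, edgeR adjusted p 8.07e-06), and Insig2 by 0.39.

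**Figure D4:**
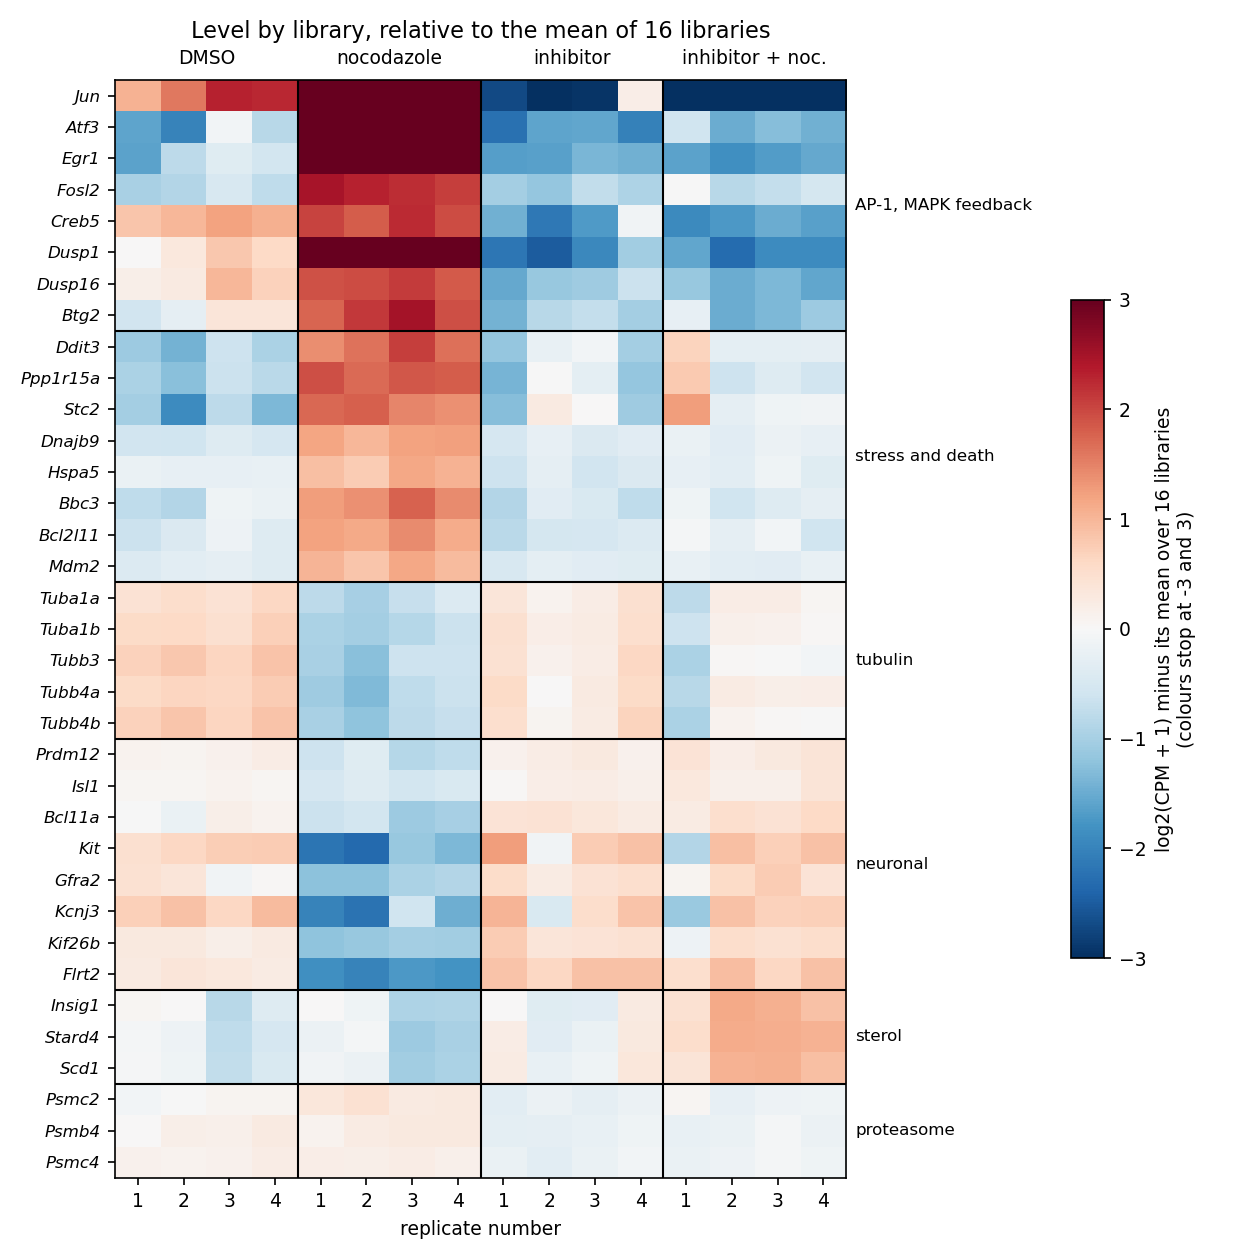
Level of 35 genes in each of the 16 libraries, as log2 of CPM plus 1 minus its mean over the 16, from blue (lower) to red (higher), with colours stopping at -3 and 3; columns are replicates within groups and rows are grouped by function. In the inhibitor plus nocodazole group the AP-1 and death genes are low in all 4 replicates. For the stress genes Ddit3, Ppp1r15a and Stc2, replicate 1 is higher than replicates 2 to 4. Replicate 1 also keeps the colours of the nocodazole group for the tubulins and is paler than replicates 2 to 4 for the sterol genes.

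Genes of the kinase pathway itself changed in both directions. Of 36 measured genes of the DLK, JNK and p38 pathway 8 rose (22.2%) and 11 fell (30.6%), with a median change of -0.07, where 17.7% and 16.2% of all tested genes rose and fell; 4 rose without nocodazole replicate 3 and 5 without inhibitor plus nocodazole replicate 2. Map3k13, which encodes the related kinase LZK, fell by 0.37. Of the JNK genes, Mapk9 and Mapk10 did not pass (0.04, SE 0.06, and 0.03, SE 0.11), and Mapk8 was called at -0.16 (edgeR adjusted p 0.0454) but not without replicate 1 (edgeR adjusted p 0.125) or replicate 4 of its group or nocodazole replicate 1, 2 or 4 (0.0642 to 0.131). Map2k6, an activator of p38, rose from 2.51, 2.03, 3.17 and 2.63 CPM to 4.04, 8.11, 6.64 and 7.49 CPM (change 1.34, SE 0.19, edgeR adjusted p 3.98e-05). Malat1, an abundant nuclear noncoding RNA, stood at 12780, 12610, 11750 and 11220 CPM and 11370, 10720, 8957 and 9202 CPM and did not pass (change -0.26, edgeR adjusted p 0.0775).

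Part of this effect was also present without nocodazole, in a comparison of DLKi_DMSO with DMSO_DMSO that shares no library with the one above. There 1107 genes rose (5.78% of tested genes) and 1387 fell (7.24%). These counts depend on single libraries: the rising count was 490 to 778 without any library other than DLKi_DMSO replicate 4 and 1448 without that one, and the falling count was 752, 775 and 756 without DLKi_DMSO replicate 2 or 3 or DMSO_DMSO replicate 4. Of the genes that rose with the inhibitor in nocodazole, 472 also rose without it, which is 13.9% of the former list and 42.64% of the latter, and 65 fell. Of those that fell in nocodazole, 678 also fell without it, 21.89% and 48.88% of the lists, and 94 rose. The difference between both inhibitor effects, tested as an interaction, was called upward for 1824 genes (9.52%) and downward for 1763 (9.2%); without replicate 1 the counts were 2740 and 2478. It was called for 1490 of the 3396 rising genes (43.88%) and 1383 of the 3098 falling genes (44.64%). The interaction contains the comparison in nocodazole itself, so these shares follow in part from selecting genes called in it.

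Proteasome subunits fell in both settings: 29 of 35 fell without nocodazole and 25 with it, and the interaction was called for 1. Psmb4 changed by -0.39 without nocodazole and -0.40 with it (interaction -0.01, SE 0.09). Shisa9, among rising genes, changed by 2.24 and 2.53 (interaction 0.28, SE 0.37). Scn10a changed by -0.37 and -0.39 (interaction -0.02, SE 0.09).

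Jun, Dusp1 and Gprc5c fell in both settings, with larger log2 changes in nocodazole. Without nocodazole Jun stood at 38.9, 56.5, 94.2 and 91.6 CPM in vehicle and at 1.96, 0.843, 1.5 and 21.1 CPM with the inhibitor, where replicate 4 lay far above the other 3. Those 3 lay near the Jun levels given above for inhibitor plus nocodazole. The change of Jun without nocodazole was -3.43 (interaction -4.05, SE 1.0, edgeR adjusted p 0.0105). Without replicate 4 of the inhibitor alone this change was -5.61 and the interaction -1.86 (edgeR adjusted p 0.0206). For Dusp1 the changes were -2.81 and -5.99 (interaction -3.17, SE 0.50, edgeR adjusted p 0.000465; -2.47 without the same library), and for Gprc5c -3.18 and -5.18 (interaction -2.0, SE 0.60, edgeR adjusted p 0.0284). The interaction of Gprc5c lost its call without DLKi_DMSO replicate 4, DLKi_Noc replicate 2, 3 or 4 or DMSO_DMSO replicate 2 (edgeR adjusted p 0.0535 to 0.0903). In 26 AP-1, ATF, CREB and Maf factors 8 fell without nocodazole, and the interaction was called downward for 13 and upward for 1. Atf3, Fosl2 and Fos were not called without nocodazole (changes -1.26, -0.22 and -1.24, edgeR adjusted p 0.0628, 0.422 and 0.215). Of 15 dual-specificity phosphatases 9 fell without nocodazole, and the interaction was called downward for 4 and upward for 2 (median interaction -0.17).

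For several stress genes and the tubulins the inhibitor alone had no called effect. Ddit3 stood at a mean of 29.6 CPM in vehicle and 40.7 CPM with the inhibitor alone (change 0.45, edgeR adjusted p 0.276; interaction -2.15, SE 0.38, edgeR adjusted p 0.00121). Bbc3 changed by -0.15 without nocodazole (interaction -1.67, SE 0.25, edgeR adjusted p 0.000282) and Hspa5 by -0.24 (interaction -1.0, SE 0.12, edgeR adjusted p 7.33e-05). Other stress genes were called there. Of 25 amino acid synthesis and transport genes 8 rose and 0 fell without nocodazole, and of 21 other stress response targets 4 rose and 1 fell. Over all tested genes 5.78% rose and 7.24% fell. Eif2ak3 changed by -0.69 without nocodazole (edgeR adjusted p 0.000211). Among 11 tubulin genes 0 were called without nocodazole in edgeR (0 at an unadjusted p below 0.05, against 29.4% of all tested genes, and 0 in DESeq2), and the interaction was called upward for 9; Tubb3 changed by -0.38 there (interaction 1.03, SE 0.26, edgeR adjusted p 0.0117). Of the 35 cholesterol genes 1 rose and 2 fell without nocodazole, and the interaction was called upward for 19. Hmox1 changed in opposite directions, by 0.70 without nocodazole and -1.31 with it (interaction -2.01, SE 0.27, edgeR adjusted p 0.000144), as did Dusp7, by -0.50 and 0.50. The call of Hmox1 without nocodazole was lost when DLKi_DMSO replicate 2 or 3 or DMSO_DMSO replicate 1, 2 or 4 was left out (edgeR adjusted p 0.0630 to 0.114).

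**Figure D5:**
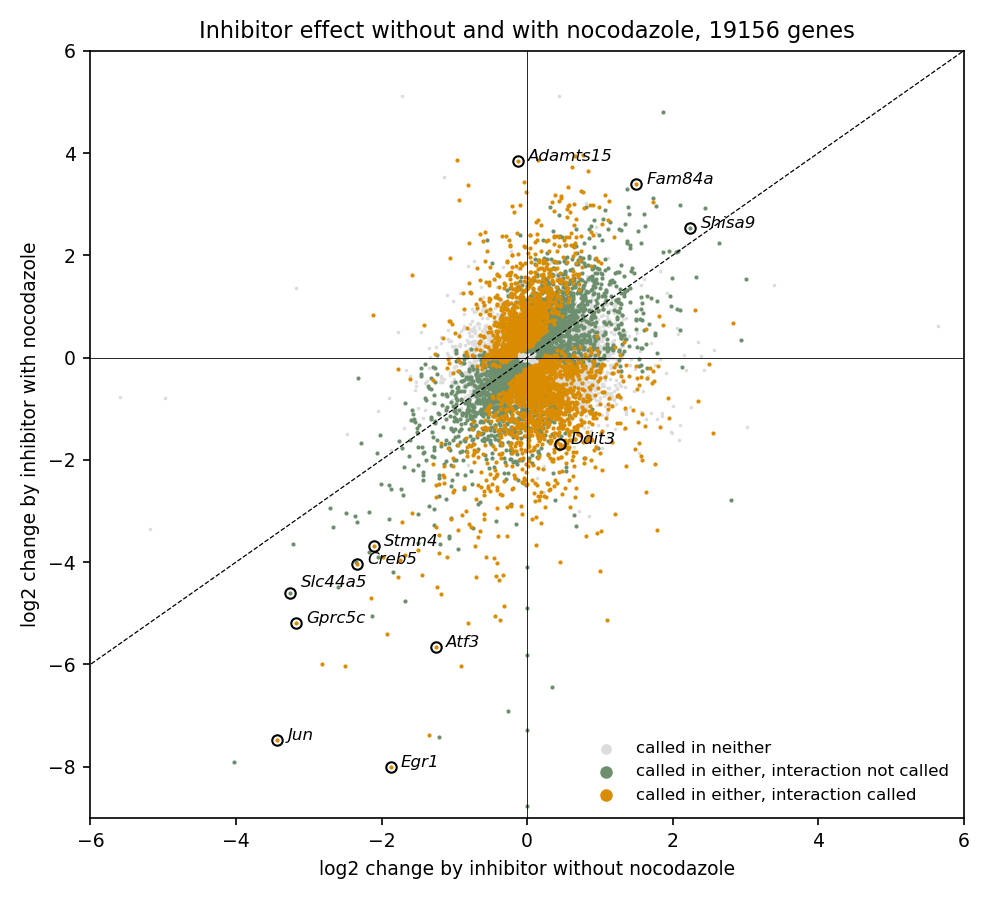
Log2 change by the inhibitor without nocodazole (horizontal axis) and with nocodazole (vertical axis) for 19156 tested genes; orange marks genes called in either comparison whose interaction was called, green those whose interaction was not, and the dashed line marks equal change. Jun, Egr1 and Atf3 lie far below the line, Shisa9 lies near it, and 11 genes of low count fall outside the axes.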

How the data were processed

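RNA of 16 samples was sequenced after removal of ribosomal RNA, per the labels' protocols. The values the authors deposited are raw counts, 1 whole number for each Ensembl gene and sample. STAR and Salmon on GRCm39 are named in the submitters' processing notes; versions, strand setting and which tool made the counts are not given in the sources used here. Symbols matched 52080 of 55356 identifiers (94.08%), and gene classes are those of GENCODE M21 on GRCm38. Columns were assigned by the labels.

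Counts were tested with edgeR 4.0.16 (limma 3.58.1, R 4.3.3): default filterByExpr, leaving 19156 genes, scaling by the trimmed mean of M-values (factors 0.9595 to 1.064), and a quasi-likelihood fit with 1 mean per group over all 16 libraries. The SE is the absolute change divided by the square root of the F statistic. DESeq2 1.42.0 was an alternative. Chi-square per degree of freedom between replicates was 7.517 to 45.94, so no library was a copy. The fit was tested on simulated counts.

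Named genes were the 15 largest changes each way with at least 5 CPM in the higher group and no overlap, up to 4 members per gene list (2 in the lesser direction), the 6 largest interactions each way and a fixed set. Of 276 genes so selected 148 are described, with 3 more chosen after their values were seen; the others are not reported here. The comparison, the 54 lists and these rules were chosen with earlier results of these data known.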

Additional observations from a re-analysis of the deposited data

Results flagged for a closer look

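By edgeR's test of the interaction over all tested genes, the inhibitor effect differed with and without nocodazole for 112 of the 151 named genes. Of the 112, 58 were more negative with nocodazole and 54 more positive. Over all tested genes the interaction was called upward for 9.52% and downward for 9.2%. Named genes were mostly selected for called or large changes, some of them in the interaction, so their high share follows in part from the selection. With each of the 16 libraries left out in turn, 96 of the 112 interactions kept their call every time, 0 reversed, and 16 lost it in at least 1 case: Bpifc, Fos, Gprc5c, Hoxa3, Lrrtm4, Map3k12, Nr4a2, Pmaip1, Psph, Scd1, Scn3a, Stard4, Syt7, Tgif1, Txnip and Vgf. The values that follow are interaction changes on the log2 scale. Among transcription factors, other immediate early genes and MAP kinase feedback genes the interaction was Jun -4.05, Atf3 -4.41, Egr1 -6.13, Fosl2 -2.67, Fos -3.24, Creb5 -1.71, Btg2 -2.26, Vgf -1.47, Arid5a -3.21, Dusp1 -3.17 and Dusp16 -1.92, and in the other direction Dusp7 1.0, Nr4a2 0.99, Klf6 0.45, Map3k12 0.31 and Map2k6 1.51. Among further genes of the falling list it was Bpifc -6.04, Afap1l2 -3.48, Snx33 -4.75, Tnfrsf12a -3.45, Gprc5c -2.0, Tgif1 -3.85, Fam167a -2.80, Il6ra -5.18, Kcnj6 -3.59 and Areg -3.93; Bpifc rests on very few counts. In the integrated stress and ER responses it was Ddit3 -2.15, Ppp1r15a -2.21, Stc2 -2.19, Txnip -1.89, Sars -0.68, Rars -0.66, Lars -0.45, Tars -0.54, Shmt2 -0.66, Psph -0.63, Eif2ak3 -1.14, Dnajb9 -1.59, Hspa5 -1.0 and Ern1 -1.43, with Manf at 0.41. In the death and growth arrest lists it was Bbc3 -1.67, Bcl2l11 -1.45, Bcl2 -1.09, Pmaip1 -2.10, Btg1 -1.36, Gadd45a -2.04 and Mdm2 -1.27, with Sesn1 at 0.86. In the injury, actin and matrix lists it was Stmn4 -1.57, Sox11 -1.55, Zyx -1.24, Filip1l -2.62, Vim -0.55, Plat -2.25, Adamts1 -1.60 and Gas2l3 -1.21, against Rab27b 1.38 and Lifr 0.71. In the clock and oxidative stress lists it was Per1 -1.61, Rora -1.76, Bhlhe40 -1.78, Hmox1 -2.01, Srxn1 -0.80 and Sqstm1 -0.40, and for Malat1 and Bicd2 it was -0.71 and -0.59. Among tubulin and microtubule genes it was Tuba1a 0.90, Tuba1b 1.06, Tubb3 1.03, Tubb4a 1.22, Tubb4b 1.12, Dclk3 1.97, Mtus2 0.90, Nav2 0.95 and Kif26b 1.22. Among receptors and other genes of the rising list it was Adamts15 3.97, Oprk1 2.81, Oprd1 1.58, Fam84a 1.91, Rhpn2 2.70, Pxylp1 1.93, P2ry1 2.70, Flrt2 2.35, Fzd7 2.53, Mob3b 2.53, Htr1b 2.40, Grhl3 3.04, Lrrtm4 1.5, Lrfn2 2.36, Kit 2.15 and Gfra2 2.01. Among sensory neuron, channel, synaptic and guidance genes it was Prdm12 0.91, Isl1 0.66, Pou4f1 0.57, Bcl11a 0.94, Scn1a 0.74, Scn3a 0.59, Kcnj3 2.44, Syt7 0.49, Rimbp2 0.88, Sema3d 2.02 and Sema6b 1.62. For sterol, Hox, interferon and proteasome genes it was Stard4 1.11, Insig1 1.18, Scd1 0.99, Hoxa9 0.94, Hoxa3 0.51, Hoxb6 0.82, Stat2 1.09, Ifit3b 1.88 and Psmd5 0.53. Leaving out 1 library moved these interactions by more than 1.5 times for 15 genes. Without inhibitor replicate 2 the interaction was Pmaip1 -1.47. Without inhibitor replicate 3 the interaction was Snx33 -3.83. Without inhibitor replicate 4 the interaction was Bpifc -4.06, Creb5 -0.94, Dusp1 -2.47, Gprc5c -1.25 and Jun -1.86. Without inhibitor plus nocodazole replicate 1 the interaction was Btg2 -2.95, Fos -4.11, Il6ra -5.78, Snx33 -6.65, Tgif1 -5.25 and Vgf -2.06. Without DMSO replicate 3 the interaction was Atf3 -5.03, Bpifc -7.33, Il6ra -6.27 and Snx33 -5.39. Without nocodazole replicate 3 the interaction was Kcnj3 3.07 and Txnip -1.27.

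A single library lay apart from the other 3 of its group for 33 of 306 sets of 4 libraries examined, where its gap to the nearest library divided by the range of the group exceeded Dixon's 95% critical value for 4 samples; chance gives about 1 in 20. Of these, 25 genes pointed to replicate 1 of the inhibitor plus nocodazole group, and so did its place on the leading principal component, with a ratio of 0.928. The ratios there were Adamts15 0.873, Ddit3 0.964, Ern1 0.884, Gadd45a 0.964, Htr1b 0.872, Jun 0.916, Kcnj3 0.91, Kcnj6 0.888, Kif26b 0.907, Kit 0.888, Lrfn2 0.888, Mars 0.836 and Per1 0.969, and further Ppp1r15a 0.832, Scn3a 0.934, Shisa9 0.864, Stard4 0.892, Stat2 0.856, Stc2 0.894, Stmn2 0.923, Tuba1a 0.852, Tuba1b 0.849, Tubb3 0.877, Tubb4a 0.94 and Tubb4b 0.894. For inhibitor plus nocodazole replicate 2 the ratio was Dusp7 0.97. For inhibitor plus nocodazole replicate 3 the ratios were Fam167a 0.832 and Mapk9 0.852. For nocodazole replicate 3 the ratios were Atf7 0.855, Oprk1 0.868, Rhpn2 0.836 and Tef 0.855.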

How the results depend on the processing

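Of the 6494 genes called for the inhibitor effect in nocodazole, 0 were called in the opposite direction under any of the alternatives run. The rising and falling counts stayed within 1.5 times of 3396 and 3098 with RLE scaling (3274 and 3187), DESeq2 (3398 and 3283), no filter on low counts (3003 and 3028), a filter of at least 1 CPM in 4 libraries (3095 and 2925) and a fit of only the 8 libraries (2614 and 2600). They moved to 1642 and 1606 when a change of more than 1.2-fold was tested. With each library left out they ranged from 2777 to 3751 and from 2577 to 3467. Without nocodazole, no filter moved the rising count from 1107 to 646, and leaving out single libraries gave 490 to 1448 rising and 752 to 1639 falling genes. For the interaction these ranges were 1328 to 2740 and 1266 to 2478. The difference in mitochondrial share, -0.0248 percentage points, ranged from -0.211 to 0.0827.

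Replicate numbers shared between groups did not pair the libraries: correlations of the deviations of same-numbered libraries were 0.23, -0.21, 0.04 and 0.09, and 0 of 4 numbers correlated best with itself. With the replicate number as a block the counts were 3378 rising and 3036 falling in nocodazole, 1102 and 1379 without it, and 1710 and 1747 for the interaction.

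Of 151 named genes 145 were called, and 128 of these kept their call under every alternative. Most named genes were selected because they were called, many of them for large changes, so these counts do not describe all genes. Over all called genes, 69.85% of the rising and 72.4% of the falling kept their call when each of the 8 libraries was left out. Malat1 was called with DESeq2 (adjusted p 0.0399), with the replicate block (0.0376) and without inhibitor plus nocodazole replicate 1 (0.0302). The sign changed, with no call either way, for Atf4 (-0.0043 with RLE scaling and with DESeq2, -0.0084 with the stricter filter, and -0.063 to 0.0883 with single libraries left out), and with single libraries left out for Gal (-0.442 to 0.0997), Mapk10 (-0.0411 to 0.131) and Mapk9 (-0.0366 to 0.0831). The cause of these differences was not tested. Depth limits the precision for genes of a few CPM or less, such as Mmp12, Bpifc, Fos and Pmaip1.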
